A study of Mus musculus with 18 samples.

Results

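Ribonucleotide reductase turns ribonucleotides into the deoxyribonucleotides (dNTPs) that DNA is copied and repaired from. Its large subunit, Rrm1, pairs either with Rrm2, a small subunit that is made in S phase and degraded in mitosis, or with Rrm2b, a small subunit that p53 induces and that supplies dNTPs for repair and for mitochondrial DNA outside S phase. Partner enzymes make thymidylate (Tyms, Tk1), remove dUTP (Dut), salvage deoxynucleosides (Dck) and break dNTPs down (Dctpp1, Samhd1), so that the pools stay balanced in dividing cells such as neural stem cells. These 9 genes, the 3 subunits and 6 partners, were taken by symbol from the deposited tables. All 9 were among the 50600 genes of each unfiltered table.

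RNA was measured in neural stem cells (NSCs) of the dentate gyrus, cultured from C57Bl6J mice aged 6 to 9 weeks in medium holding the growth factors EGF and FGF2 at 20 ng/ml. Cultures received 500 µM H2O2, an oxidant, or vehicle for 24 h, the vehicle being water in the labels and PBS in the study's methods. The RNA of each was diluted to 1 ng, 100 pg and 10 pg for cDNA synthesis and sequencing, to ask how RNA input affects the detection of differential expression. The 18 libraries form 6 groups of 3, vehicle and H2O2 at each input, and each group has a library of culture F5, of F8 and of M9. By the study's methods there were 2 NSC lines, each derived from several mice pooled by sex, so 2 of the 3 cultures share a line. The 3 inputs are dilutions of the same 6 RNA samples and are not independent of each other.

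Libraries held 10032628 to 13051643 counted reads. Neural stem and progenitor markers summed to between 72088 and 93407 normalised counts at 1 ng (8 of 8 markers tested, Nes, Sox2 and Vim among them), while those of oligodendrocyte lineage, microglia, endothelium and neurons summed to at most 177, with Sox10 at 0 in all 6 libraries, and those of astrocytes to between 1826 and 3076. Vim was the 1 stem cell marker that passed and rose. The microglial markers summed to 115 to 130 in vehicle and 152 to 168 in H2O2, and their part in the results was not tested. The H2O2 library of culture F5 stood apart from the other H2O2 libraries: at 1 ng the 9 genes together took 0.0201% of its reads, against 0.0613% in H2O2 F8, 0.0651% in H2O2 M9 and 0.136 to 0.150% in the vehicle libraries. Many of the results are therefore also given without that library. In bulk RNA, fewer cells in S phase and less RNA per cell cannot be told apart.

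The start regions of the genes were read from RefSeq promoter windows of 250 bases before to 50 after the start, which were present for 8 of the 9 genes. The windows were searched on both strands for the E2F-type motif TTTCGCG, its variant with letters TTTGGCG and its further variant TTTCCCG, for the CCAAT box and for the cell cycle homology motif TTTGAA. None of these is contained in another. Only exact matches were counted, and other forms of the E2F site were not searched. Any of the 3 E2F-type motifs was found in 0 of the 8 windows and in 5.58% of all 32851 windows. CCAAT was found in 3 of the 8 and in 37.4% of all, and TTTGAA in 1 of the 8, that of Dck, and in 17.9% of all. The 3 sequences that hold CCAAT are shown, since Rrm1 and Rrm2 encode both subunits of the S-phase enzyme. They are from RefSeq (GRCm38.p6), 5′ to 3′ in the direction of the gene, and end at the outermost start annotated by GENCODE M21. Capitals mark CCAAT, or ATTGG where it lies on the other strand.
Rrm1 (chr7:102441445-102441694, plus strand): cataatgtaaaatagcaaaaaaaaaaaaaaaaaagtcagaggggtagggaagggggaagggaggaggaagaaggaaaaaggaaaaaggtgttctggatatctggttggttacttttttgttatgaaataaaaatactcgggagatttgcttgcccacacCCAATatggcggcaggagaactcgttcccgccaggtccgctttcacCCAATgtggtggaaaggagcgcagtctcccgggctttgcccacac
Rrm2 (chr12:24708004-24708240, plus strand): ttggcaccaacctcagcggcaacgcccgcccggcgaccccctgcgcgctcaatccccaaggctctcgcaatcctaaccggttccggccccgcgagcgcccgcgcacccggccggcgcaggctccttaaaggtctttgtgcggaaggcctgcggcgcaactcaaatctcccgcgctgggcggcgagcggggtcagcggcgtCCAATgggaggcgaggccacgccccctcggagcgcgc
Dctpp1 (chr7:127260710-127260917, minus strand): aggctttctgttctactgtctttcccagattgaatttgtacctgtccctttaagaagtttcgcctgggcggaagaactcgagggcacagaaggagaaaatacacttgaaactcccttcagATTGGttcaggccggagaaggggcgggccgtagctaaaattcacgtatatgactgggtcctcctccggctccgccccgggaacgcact
In Rrm1 the motif began 91 and 45 bases before the RefSeq start, and in Rrm2 50 bases before it. In Dctpp1 it lay on the other strand, 130 and 31 bases before the start, and the second match is outside the stretch shown.

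At 1 ng, the transcripts of 5 of the 9 genes, Rrm1, Tyms, Dut, Dck and Dctpp1, fell after H2O2 and none rose. Among all 13692 tested genes, 12.7% passed the same test in either direction and 7.11% were lower (limma on log2(normalised count + 1), Benjamini-Hochberg adjusted p below 0.05, n = 3 per group). The median log2 fold change was −1.56 over the 9 genes and 0.018 over all tested genes. The 3 vehicle and 3 H2O2 values did not overlap for 8 of the 9, all lower in H2O2, against 19.7% of all tested genes that did not overlap and were lower. With the culture as a block, 7 genes passed, as 9.87% of all genes did in the lower direction, the additional ones being Rrm2 and Tk1. The same 7 passed without H2O2 F5 (7.22% of all genes were then called lower). DESeq2 and edgeR on recovered reads each called the 5 genes that limma called, with 11.8% and 7.25% of all genes called lower.

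**Figure D1:**
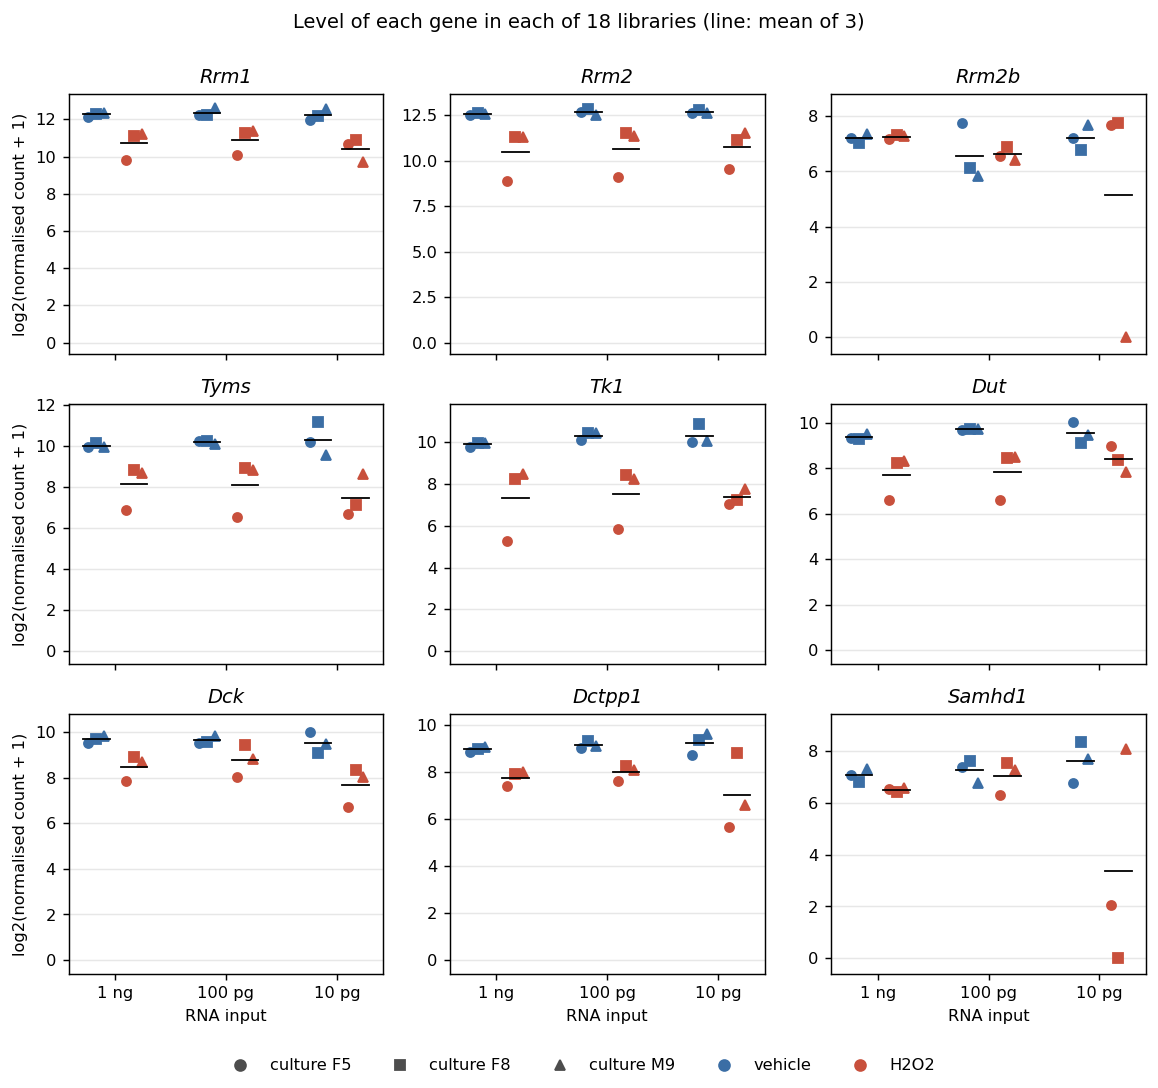
Level of each of the 9 genes in the 18 libraries, as log2(normalised count + 1) of the unfiltered tables against RNA input. Symbols mark the cultures, colours the treatment and horizontal lines the means of 3. At 1 ng the red H2O2 points lie below the blue vehicle points for 8 genes, with the H2O2 F5 circle lowest for 7 of these 8, while for Rrm2b they lie together. At 10 pg, points at 0 mark Rrm2b in H2O2 M9 and Samhd1 in H2O2 F8.

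Rrm1, the large subunit that carries the active site and the allosteric sites of the enzyme, lies on chromosome 7 (GRCm38, 102441695 to 102469771, plus strand). Its normalised counts at 1 ng were 4560, 5054 and 5201 in vehicle F5, F8 and M9, and 892, 2193 and 2404 in H2O2 F5, F8 and M9. The H2O2 libraries were all below the vehicle libraries, and F5 was the lowest. The log2 fold change was −1.56 (SE 0.34, limma adjusted p = 0.0317). Without H2O2 F5 it was −1.10 (adjusted p = 0.0020).

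Rrm2, the S-phase small subunit, lies on chromosome 12 (24708241 to 24714146, plus strand). It measured 5943, 6411 and 5988 normalised counts in vehicle F5, F8 and M9 at 1 ng, and 469, 2543 and 2536 in the H2O2 libraries in the same order. The vehicle libraries stayed within a narrow range (6114 ± 258, SD, n = 3), and H2O2 F5 lay far below the other H2O2 libraries. The log2 fold change of −2.08 (SE 0.58) missed the threshold in the unblocked limma fit (adjusted p = 0.0547) and passed it with the culture block (adjusted p = 0.0295). Without H2O2 F5 the fold change was −1.27 and passed (limma adjusted p = 0.0014). Within F5 the H2O2 level was 7.89% of the vehicle level, and it was 39.7% in F8 and 42.4% in M9.

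Rrm2b, the p53-induced small subunit, lies on chromosome 15 (37923952 to 37961318, minus strand). It showed 148.0, 133 and 164 normalised counts in vehicle F5, F8 and M9 and 145, 158 and 156 in H2O2 F5, F8 and M9. These groups overlapped, and the H2O2 F5 library was not apart from the others. The log2 fold change was 0.048 (SE 0.17, limma adjusted p = 0.870), with a 95% interval of −0.34 to 0.44. An antisense gene, Gm49085, overlaps its exons, and no counted gene has that name. The counting did not use strand, so any reads of it were not set apart here.

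Levels of different genes were compared per kb of merged exons (GENCODE M21). Merged exons join those of all annotated transcripts of a gene, so the order of genes depends on the annotation. The lengths of the transcripts present in these cells were not tested. Before division by length, Rrm1 exceeded Dctpp1 in every vehicle library at 1 ng, and Rrm2 exceeded Dctpp1 in H2O2 F5. In vehicle at 1 ng Rrm2 was the highest per kb, at 2207 ± 93.2 normalised counts. Dctpp1 at 734 ± 50.9 and Rrm1 at 448 ± 30.5 followed (SD, n = 3). Dut at 280 ± 21.3, Dck at 221 ± 22.2, Tk1 at 186 ± 14.7 and Tyms at 173 ± 14.1 came next, and Tk1 and Tyms differed from each other by less than their spread. Rrm2b at 16.2 ± 1.698 and Samhd1 at 14.9 ± 2.61 were the lowest and did not differ beyond their spread. After H2O2 Rrm2 was at 667 ± 431 per kb and Dctpp1 at 320.3 ± 65.8, a difference within the spread of Rrm2. In H2O2 F5 Rrm2 was below Dctpp1, at 169 against 246 per kb, while in H2O2 F8 and M9 it was above it. Rrm2b was at 16.7 ± 0.76 after H2O2.

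Setting Rrm2 against Rrm2b within a library removes the size factor. In reads per exon length at 1 ng, Rrm2 exceeded Rrm2b 132-fold, 159-fold and 121-fold in vehicle F5, F8 and M9, and 10.7-fold, 53.2-fold and 53.6-fold in H2O2 F5, F8 and M9. These fold values depend on the merged exon lengths used. Every H2O2 library was below every vehicle library. Rrm2 remained the more abundant small subunit transcript in all 6, with or without division by length. The mean log2 ratio of normalised counts, with 1 added to each, differed by −2.13 between H2O2 and vehicle (SE 0.78, n = 3 per group, exact 2-sided permutation p = 0.1, the smallest that 3 against 3 can give). Without H2O2 F5 the difference was −1.35. At 100 pg the ratios were 100.1, 353 and 335 in vehicle and 19.3, 82.1 and 101.0 in H2O2, in the same order of cultures. The groups overlapped, with vehicle F5 just below H2O2 M9, and the log2 difference was −2.07 (SE 0.95, exact permutation p = 0.2, n = 3 per group).

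At 10 pg Rrm2b had 167, 114 and 243 reads in vehicle F5, F8 and M9, 189 and 215 in H2O2 F5 and F8, and 0 in H2O2 M9. The last library held 3232 reads of Rrm2. Against a floor of 3 Rrm2b reads its ratio was at least 1077-fold in reads and 3551-fold per exon length. The RNA of H2O2 M9 gave 148 Rrm2b reads at 1 ng and 78 at 100 pg, so this bound is on reads and not on transcripts. Per exon length the ratio was 12.4 in H2O2 F5 and 34.6 in H2O2 F8 against 99.5 to 219 in vehicle. H2O2 F5 and F8 were thus below all vehicle libraries and H2O2 M9 above them. The difference of the mean log2 ratios, 0.15 (SE 3.02, exact permutation p = 1, n = 3 per group), depended on that library and was −2.81 without it. Rrm1 against Rrm2 within a library, which compares the subunits of the S-phase enzyme, gave a log2 ratio of −0.31 ± 0.094 in vehicle and 0.21 ± 0.62 in H2O2 at 1 ng (SD, n = 3). The difference of 0.52 (SE 0.36, exact permutation p = 0.2) was within the spread of the H2O2 libraries.

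**Figure D2:**
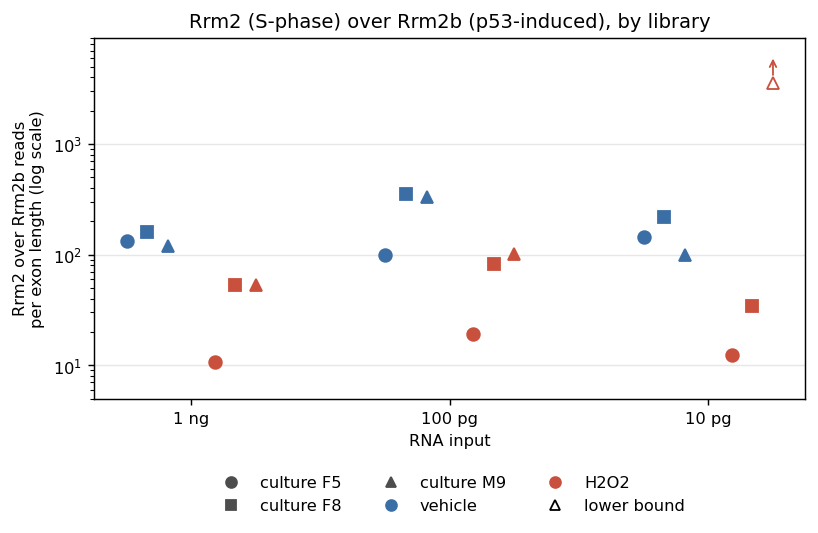
Reads of Rrm2 over reads of Rrm2b, each divided by its exon length, on a log axis against RNA input, for every library. Symbols mark the cultures and colours the treatment, and the open triangle with an arrow is a lower bound for H2O2 M9 at 10 pg, where Rrm2b had 0 reads. At 1 ng all H2O2 libraries (10.7 to 53.6) lie below all vehicle libraries (121 to 159).

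Thymidylate is made by Tyms from dUMP and by Tk1, an S-phase kinase, from thymidine, and Dut turns dUTP into dUMP. Tyms (chromosome 5, 30058202 to 30073617, minus strand) was at 996, 1151 and 1010 normalised counts in vehicle F5, F8 and M9 at 1 ng and at 120, 454 and 412 in the H2O2 libraries. It fell by 1.89 on the log2 scale (SE 0.45, limma adjusted p = 0.0381), and its log2 fold change without H2O2 F5 was −1.28 (limma adjusted p = 0.0020). The groups did not overlap, and H2O2 F5 was at 12.0% of vehicle F5.

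Tk1 (chromosome 11, 117815526 to 117826092, minus strand) was at 878, 1019 and 998 in vehicle and at 38.2, 298 and 356 in H2O2, again in the order F5, F8 and M9. Its log2 fold change of −2.58 (SE 0.74) was the most negative of the 9, with an adjusted p of 0.0570 in the unblocked limma fit and 0.0279 with the block. Without H2O2 F5 it was −1.56 (limma adjusted p = 0.0020). Tk1 in H2O2 F5 was at 4.36% of vehicle F5, and at 29.2% and 35.7% in F8 and M9. Its exons overlap those of Afmid on the opposite strand, which had 16.8 to 82.8 normalised counts at 1 ng, and the counting did not use strand.

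Dut (chromosome 2, 125247190 to 125258608, plus strand) was at 648, 645 and 735 normalised counts in vehicle F5, F8 and M9 and at 98.6, 298 and 320 in H2O2. It fell by 1.67 on the log2 scale (SE 0.41, limma adjusted p = 0.0401), with no overlap between the groups. Without H2O2 F5 the log2 fold change was −1.12 (limma adjusted p = 0.0025).

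Dck, which starts the salvage of deoxycytidine, deoxyadenosine and deoxyguanosine, lies on chromosome 5 (88764996 to 88783281, plus strand). It was at 749, 846 and 916 normalised counts in vehicle F5, F8 and M9 at 1 ng and at 230.4, 485 and 416 in H2O2, and fell by 1.21 on the log2 scale (SE 0.26, limma adjusted p = 0.0310). The 3 H2O2 libraries were all lower, with F5 at 30.8% of its vehicle library. When H2O2 F5 was left out the log2 fold change of Dck was −0.89 (limma adjusted p = 0.0068).

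Dctpp1, a pyrophosphatase that hydrolyses dCTP and its modified forms, lies on chromosome 7 (127256959 to 127260709, minus strand). Its values were 459, 501 and 527 in vehicle and 166, 234 and 249.7 in H2O2, in the same order. It had the smallest SE among the genes that passed, with a log2 fold change of −1.21 (SE 0.18, limma adjusted p = 0.0201). The cultures lay close together, at 36.2%, 46.7% and 47.4% of their vehicle libraries. When H2O2 F5 was left out the log2 fold change of Dctpp1 was −1.03 (limma adjusted p = 0.0040).

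Samhd1, which hydrolyses dNTPs and lowers their pools outside S phase, lies on chromosome 2 (157097533 to 157135265, minus strand). At 1 ng it showed 136, 113 and 160.3 normalised counts in vehicle F5, F8 and M9 and 93.6, 84.4 and 95.9 in H2O2. The groups did not overlap, but the log2 fold change of −0.56 (SE 0.21, 95% interval −1.04 to −0.086) did not pass (limma adjusted p = 0.107). H2O2 F5 lay between the other H2O2 libraries. Of the 9 genes, Samhd1 and Rrm2b were the ones for which F5 did not have the most negative difference between H2O2 and vehicle at 1 ng.

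**Figure D3:**
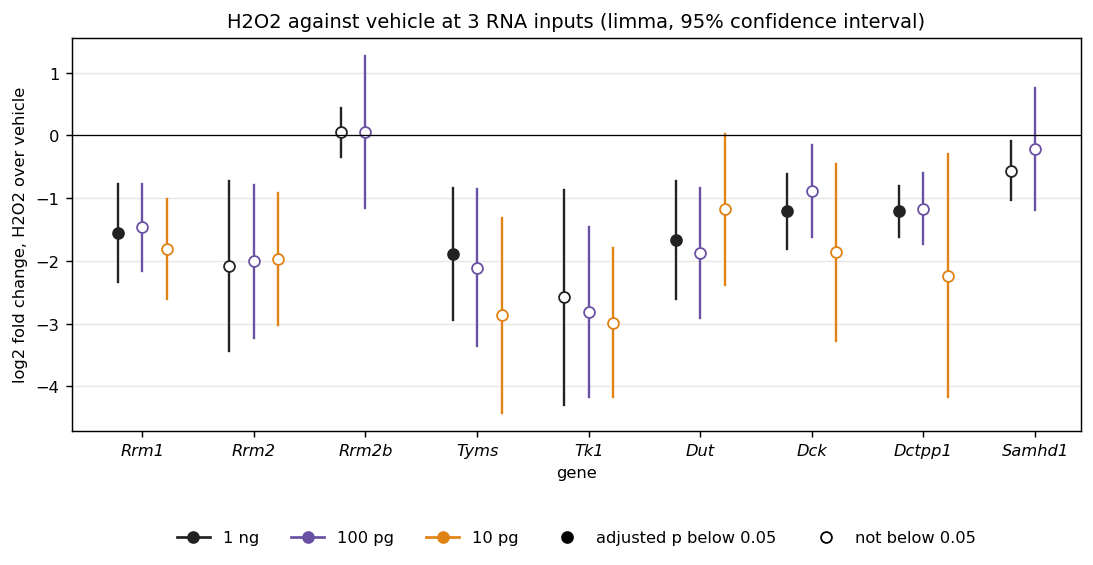
Log2 fold change of H2O2 over vehicle for each gene at 1 ng, 100 pg and 10 pg, from limma, with vertical lines for the 95% confidence interval. Filled points have an adjusted p below 0.05 and are the 5 genes called at 1 ng. Estimates for Rrm1 lie at −1.56, −1.46 and −1.82 at the 3 inputs and those for Rrm2 at −2.08, −2.01 and −1.97. Rrm2b and Samhd1 have no estimate at 10 pg because the filtered table does not hold them.

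At 100 pg, 0 of the 9 genes passed in the unblocked limma fit, where 1.51% of all 12171 tested genes did, and edgeR also called 0 (0.739% of all genes were called lower). With the culture block 5 genes passed, all lower (2.29% of all genes in that direction), namely Rrm1, Rrm2, Tk1, Dut and Dctpp1, with adjusted p from 0.0267 to 0.0480. DESeq2, the study's tool, called 5, namely Rrm1, Tyms, Tk1, Dut and Dctpp1 (5.67% of all genes were called lower). Without H2O2 F5, limma called Rrm1, Rrm2, Tyms, Tk1 and Dut (1.54% of all genes in that direction). At an unadjusted p below 0.05, 7 of the 9 passed in the limma fit, as did 21% of all genes. Each input was normalised separately, so levels at different inputs are only set side by side.

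Rrm1 was at 4801, 4910 and 6218 normalised counts in vehicle F5, F8 and M9 at 100 pg and at 1082, 2414 and 2681 in H2O2 (log2 fold change −1.46, limma adjusted p = 0.0543). Rrm2 was at 6473, 7357 and 5812 in vehicle and at 553, 2949 and 2604 in H2O2 (−2.01, adjusted p = 0.0862). Both kept the H2O2 libraries below the vehicle libraries with F5 lowest, as Tyms, Tk1, Dut, Dck and Dctpp1 did, so that the groups did not overlap for 7 of the 9 genes (14.1% of all tested genes did not overlap and were lower). The log2 fold changes of those 5 genes were −2.11 for Tyms, −2.82 for Tk1, −1.88 for Dut, −0.89 for Dck and −1.17 for Dctpp1. Without H2O2 F5 the changes at 100 pg were smaller: −1.05 for Rrm1, −1.23 for Rrm2, −1.33 for Tyms, −1.99 for Tk1, −1.26 for Dut, −0.52 for Dck and −0.98 for Dctpp1.

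Rrm2b in vehicle had the widest spread of any of the 9 genes in vehicle at this input (coefficient of variation 76.9%), and in H2O2 the narrowest of the 9 in H2O2 (17.3%). It was at 213, 68.8 and 57.1 normalised counts in vehicle F5, F8 and M9 and at 94.7, 118 and 85.0 in H2O2. The groups overlapped, and its log2 fold change of 0.060 (SE 0.53) had a 95% interval of −1.15 to 1.27. The sign was not stable: DESeq2 gave −0.19. Samhd1 was at 167, 196 and 109.7 in vehicle and at 79.7, 188 and 153 in H2O2, which overlapped as well (−0.22, SE 0.43, limma adjusted p = 0.816), and it was 0.14 without H2O2 F5.

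At 10 pg the filtered table held 7 of the 9 genes, without Rrm2b and Samhd1, and limma called none of them nor any of the 6356 tested genes (0%). At an unadjusted p below 0.05, 6 of the 7 passed, as did 10.2% of all genes. edgeR and the culture block called 0, and DESeq2 called 4, namely Rrm1, Rrm2, Tyms and Tk1 (0.871% of all genes were called lower). All 7 had lower means in H2O2, and the groups did not overlap for 6 (8.43% of all tested genes). The exception was Dctpp1, at 428, 671 and 810.5 normalised counts in vehicle F5, F8 and M9 and at 49.1, 449.9 and 97.6 in H2O2, where H2O2 F8 exceeded vehicle F5.

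Rrm1 at 10 pg was at 4103, 4669 and 6149 in vehicle and at 1607, 1936 and 866 in H2O2, so that M9 and not F5 was the lowest. Rrm2 was at 6664, 7325 and 6456 in vehicle and at 758, 2267 and 3063 in H2O2, with F5 lowest as at the other inputs. The log2 fold changes at 10 pg ranged from −1.17 for Dut to −2.99 for Tk1. Samhd1 in the unfiltered table had 122, 343 and 246 reads in vehicle F5, F8 and M9 and 3, 0 and 291 in H2O2, so H2O2 M9 lay among the vehicle libraries while H2O2 F5 and F8 were at or near 0.

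The spread between cultures was wider in H2O2 than in vehicle for 7 of the 9 genes at 1 ng, and for most of them this rested on the H2O2 F5 library. The median coefficient of variation over the genes was 7.91% in vehicle and 44.7% in H2O2 at 1 ng, 11.9% and 46.4% at 100 pg, and 32.5% and 49.7% over the 7 genes at 10 pg. Over H2O2 F8 and M9 alone the medians in H2O2 were 6.51%, 8.79% and 26.2% at the 3 inputs, from 2 libraries against 3 in vehicle. At 1 ng Tk1 (12.6% against 7.91% in vehicle) and Dck (10.8% against 10.0%) remained wider in H2O2 over these 2 libraries. Rrm2b (10.5% in vehicle, 4.54% in H2O2) and Samhd1 (17.5% and 6.64%) had the narrower spread in H2O2 at 1 ng. Within cultures, the median log2 difference between H2O2 and vehicle over the genes at 1 ng was −2.35 for F5, −1.11 for F8 and −1.14 for M9. At 100 pg these medians were −2.15, −1.07 and −1.16. F5 had the most negative difference for 7 of 9 genes at 1 ng, 9 of 9 at 100 pg and 3 of 7 at 10 pg.

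Some other enzymes that feed or clean the dNTP pools also had lower transcripts. Of 20 dNTP and thymidylate partners tested at 1 ng, 6 fell, none rose and 14 did not pass (median −0.35 against 0.018 over all genes). In the same fit 7.11% of all 13692 tested genes were lower. When H2O2 F5 was left out, 7 of the 20 fell (median −0.24), where 7.22% of all genes were lower. Dctd, which deaminates dCMP to dUMP, went from 223 ± 37.8 to 84.6 ± 40.3 normalised counts (log2 fold change −1.51, limma adjusted p = 0.0444, n = 3 per group). Slc29a1, a nucleoside transporter (log2 fold change −1.14), Dtymk, which phosphorylates dTMP (−0.93), and Nudt1, which hydrolyses oxidised purine dNTPs (−0.73), fell as well.

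In de novo pyrimidine synthesis 2 of 5 genes fell and none rose at 1 ng (median −0.88), where 7.11% of all tested genes were lower. Umps, which makes UMP, fell from 1520 ± 101 to 777 ± 207 normalised counts (limma adjusted p = 0.0268, n = 3 per group), and Ctps, which makes CTP, from 1339 ± 140 to 796 ± 156 (log2 fold change −0.76, adjusted p = 0.0297). In de novo purine synthesis 8 of 12 genes fell and none rose (median −0.76), and all 12 had negative fold changes. Ppat, the first committed enzyme (log2 fold change −1.12), Prps1 (−0.93), Atic (−0.90) and Pfas (−0.88) fell most. Salvage and breakdown enzymes moved less, with 2 of 12 tested genes lower and a median of −0.15: Uck2, a uridine and cytidine kinase (−0.76), and Adk, an adenosine kinase (−0.72), fell. The block and DESeq2 each called 1 gene of this list higher, where 8.44% and 10.7% of all genes were higher. Of 10 tested genes for mitochondrial DNA upkeep, which Rrm2b serves outside S phase, 2 fell and 8 did not pass (median −0.043). The 2 were Mgme1, a mitochondrial exonuclease (−0.81), and Polg, the mitochondrial DNA polymerase (−0.69). When H2O2 F5 was left out, 3 pyrimidine, 9 purine, 2 salvage and 2 mitochondrial DNA genes fell, where 7.22% of all genes were lower. The medians were then −0.66, −0.55, 0.017 and 0.027 in that order. These lists are small, and their counts were not tested against the share of all genes.

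Genes that control the enzyme or share its S-phase timing were also lower. Of 12 regulators of ribonucleotide reductase and Samhd1, 5 fell and none rose (median −1.32), where 7.11% of all tested genes were lower. With the block 11 fell, against 9.87% of all genes in that direction. When H2O2 F5 was left out 9 regulators fell (median −0.998), where 7.22% of all genes were lower. Ccnf, the cyclin F that marks Rrm2 for degradation, went from 1546 ± 91.0 to 457 ± 280 normalised counts (log2 fold change −2.03, limma adjusted p = 0.0424, n = 3 per group). Ccna2, the S and G2 cyclin whose complex with Cdk phosphorylates Samhd1, fell (−2.04), as did the kinases Wee1 (−1.45) and Cdk2 (−1.19). Of 14 S-phase genes 11 fell and none rose (median −1.91), against the same 7.11% of all genes. Mcm6, a subunit of the replicative helicase, fell (−2.14), and so did Ccne2 (−2.10), Uhrf1 (−2.05) and Mcm2 (−2.01). The median deviation of the S-phase list from the vehicle mean was −3.23 in H2O2 F5, −1.05 in F8 and −1.39 in M9, so it was lowest in the library in which the reductase genes were lowest, and its part in their change was not tested. Without H2O2 F5 all 14 fell (median −1.24), where 7.22% of all genes were lower.

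Most transcripts of p53 targets other than Rrm2b had positive fold changes at 1 ng. Of 14, 8 rose and none fell in the unblocked limma fit (5.57% of all tested genes rose), with a median of 0.66. When H2O2 F5 was left out 8 rose and none fell (4.23% of all genes rose), with a median of 0.63. With the block 10 rose and 1 fell (8.44% of all genes rose), and DESeq2 also called 10 higher and 1 lower (10.7% of all genes were called higher). The one called lower was Gtse1, a microtubule-binding protein made in S and G2 phase (log2 fold change −0.73, adjusted p = 0.0801 in limma without the block, 0.0390 with it and 0.0301 in DESeq2), named after its values were seen. Cdkn1a, the p21 inhibitor of cyclin-dependent kinases, rose from 6668 ± 1507 to 11905 ± 815 normalised counts (log2 fold change 0.86, limma adjusted p = 0.0277, n = 3 per group). Perp (2.44), Trp53inp1 (0.997) and Mdm2, the ligase that marks p53 for degradation (0.80), rose too. The fold change of Rrm2b, 0.048 with a 95% interval of −0.34 to 0.44, was below that of 13 of the 14. At 100 pg 1 of 13 tested p53 targets rose in limma, which was Ccng1 (0.75, adjusted p = 0.0452), where 0.666% of all genes rose. With the block 4 rose (1.77% of all genes), and DESeq2 called 9 higher (4.87% of all genes). The S-phase list had 2 of 14 lower in limma at that input, Mcm3 and Uhrf1 (0.846% of all genes were lower). It had 8 lower with the block (2.29% of all genes) and 11 with DESeq2 (5.67% of all genes). At 10 pg no gene of these lists passed in limma.

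**Figure D4:**
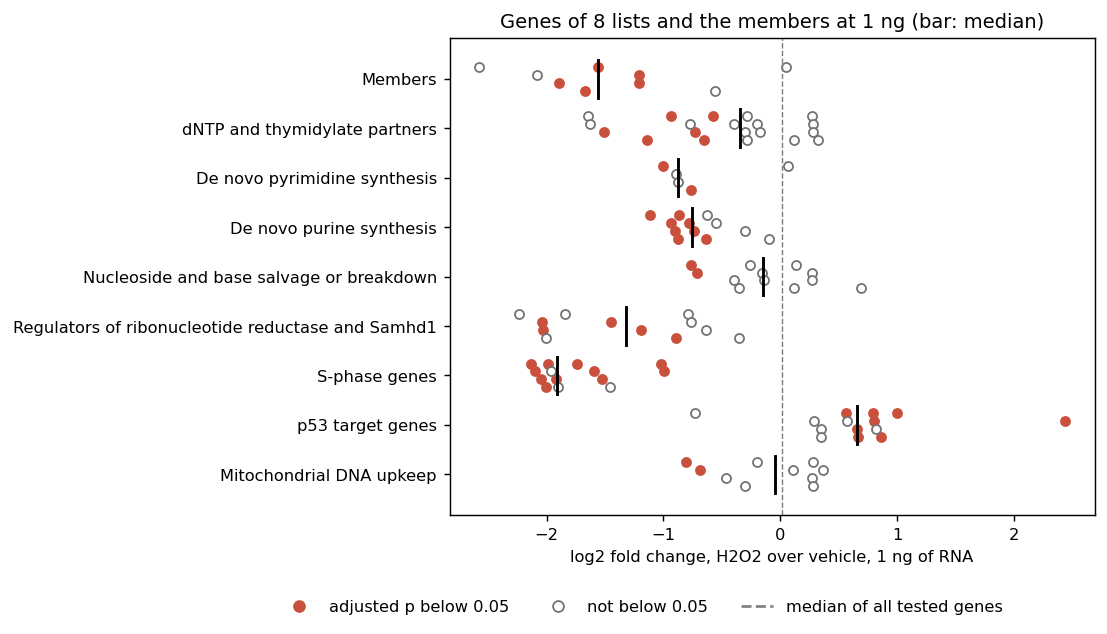
Log2 fold change of H2O2 over vehicle at 1 ng for the 9 genes and for the tested genes of 8 lists, 1 point per gene. Filled red points have an adjusted p below 0.05 in limma, black bars are list medians, and the dashed line is the median of all tested genes, 0.018. The medians lie at −1.56 for the 9 genes, −1.91 for S-phase genes and 0.66 for p53 targets.

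The genes most like Rrm2 and Rrm2b were sought over the 6 libraries at 1 ng among 9411 tested genes with a mean of at least 100 normalised counts, by Pearson r. The 5 most like Rrm2 were Arhgap11a, Ddx11, Smyd2, Cdk1 and Pole, with r from 0.9991 to 0.9997 at 1 ng and from 0.911 to 0.994 at 100 pg. These 6 points share the H2O2 F5 library as their extreme. The 5 most like Rrm2b were Dgke, Tceanc, Prrc2b, Cacfd1 and Tbrg1, with r from 0.962 to 0.983 at 1 ng. At 100 pg their r with Rrm2b was 0.440, 0.138, 0.632, −0.375 and −0.0951, so these genes were less like Rrm2b in the other dilution of the same RNA.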

How the data were processed

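Reads were trimmed, aligned with HISAT2 2.0.6 and counted per gene without strand by featureCounts. The submitters' notes name GRCh38, a human build, the study's methods the mouse build GRCm38. The deposited values are a normalised count signal: the authors divided gene counts by 1 size factor per library, separately for each input, and kept either all genes or those that CLEAR, a coverage-based filter, took as reliably measured. All values (100% within 1e-06) were whole multiples of 1 read, so reads were recovered. Columns were assigned to groups by treatment and input in their headers. The filtered tables were tested with limma 3.58.1 (R 4.3.3, eBayes with trend) on log2(value + 1), which understates changes of low genes, and genes at 0 in all libraries were dropped. Recovered reads were tested with DESeq2 1.42.0 and edgeR 4.0.16. The unblocked limma, DESeq2 and edgeR fits were tested on simulated data that held no culture effect. The fit with the block was not tested in this way. Replicates differed beyond sampling noise (chi-square per gene 7.30 to 209.7). Without the block, p-values measure the spread between cultures, of which 2 share a line. With the block they measure the spread of the difference between H2O2 and vehicle over the cultures. With 3 libraries per group an exact test cannot go below 0.1. Vehicle and H2O2 libraries of a culture were paired by culture name. Their deviations from group means correlated with r = 0.122 in F5, 0.101 in F8 and 0.341 in M9 at 1 ng. At 100 pg r was 0.0262 to 0.170, and at 10 pg −0.0293 to 0.0341. Vehicle F8 with H2O2 F5 gave 0.0962 at 1 ng and 0.0526 at 100 pg, so r hardly set the F5 and F8 pairs apart. The block therefore rests on the culture names. PCR reads are not independent molecules. The genes and lists were chosen with earlier results of these data known. List genes were named by rule, up to 4 per list passing at 1 ng with the largest change. Protein features were not analysed here.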

Additional observations from a re-analysis of the deposited data

How the results depend on the processing

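With 3 cultures, the number of the 9 genes that passed depended on single libraries. At 1 ng it was 5, and 0 to 7 when libraries were left out: 0 without any one vehicle library or without both libraries of F8 or of M9, 3 without H2O2 F8, and 7 without H2O2 F5, without H2O2 M9 or without both libraries of F5. The fits that called 0 of the 9 also called 0 of all genes tested, and limma called 2.87% of all genes lower without H2O2 F8, 7.22% without H2O2 F5, 7.08% without H2O2 M9 and 4.13% without both libraries of F5. At 100 pg it was 0, 5 with the culture as replicate block, 5 with DESeq2, 3 among genes with a mean of at least 50 (1.68% of all such genes were lower), and 0 to 5 when libraries were left out. At that input too, no gene at all was called without any one vehicle library, without H2O2 F8 or without both libraries of F8 or of M9. At 10 pg it was 0, and 4 with DESeq2. Of the single-gene fold changes under the alternatives, 2 of 144 changed sign at 1 ng, 9 of 144 at 100 pg and 0 of 112 at 10 pg. These were Rrm2b at 1 ng when libraries were left out (−0.051 to 0.12), Rrm2b at 100 pg with DESeq2 (−0.19), with edgeR (−0.17) and when libraries were left out (−0.30 to 0.67), and Samhd1 at 100 pg when libraries were left out (−0.56 to 0.20). The difference of log2 Rrm2 to Rrm2b ratios at 10 pg was −0.60 with a pseudocount of 5, and −2.81 to 2.01 when libraries were left out. At 1 ng it stayed between −2.52 and −1.35 and at 100 pg between −2.65 and −1.32. The block changed no other call at 1 ng than those of Rrm2 and Tk1 among the 9 genes. In limma on the unfiltered values at 1 ng, Rrm2 (adjusted p = 0.0239) and Tk1 (adjusted p = 0.0256) also passed, where 3% of all genes were lower. That fit called no gene at all at 100 pg. Rrm2b and Samhd1 at 10 pg have no filtered value to set an alternative against. The counts of listed genes with the block, with DESeq2 and without H2O2 F5 were added after seeing the data. So were the list medians and the spread without H2O2 F5.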
